A study of Capra hircus with 3 samples.

Results

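The genes described here act in the turnover of the extracellular matrix in the goat mammary gland. They are the matrix metalloproteinases MMP2, MMP9, MMP11 and MMP14, the tissue inhibitors of metalloproteinases TIMP1, TIMP2 and TIMP3, and the plasminogen activators PLAT and PLAU. These 9 genes were chosen by symbol and found by NCBI gene ID among 13023 protein-coding genes with deposited values. The choice was made with earlier results of these data known. Shares of all protein-coding genes given beside their counts are therefore a description and no independent test. Each had 1 locus. Mammary tissue was removed by surgery from 5 healthy Laoshan dairy goats, 4 years old and in the third lactation, at 10, 90 and 210 days after parturition. The stages are labelled by day, and no treatment besides the anaesthesia and surgery was named. Day, library and any earlier surgery on the same goats cannot be told apart. The RNA of the 5 goats was mixed at each stage into 1 library, named E for early, P for peak and L for late lactation. Animals were thus pooled, no value is from a single goat, and a difference between stages has neither a replicate check nor a p-value. The values are FPKM, fragment counts divided by transcript length and by the mapped reads of the library. The reads behind each value were not used here, so its precision is unknown.

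Each library is named by its label. However, supplementary tables of the study list the P library (for MMP9 and MMP14) and the L library (for MMP14 and TIMP1) on the other side of E than the deposited columns with those labels. The mismatch is not confined to these genes. The study also counted the fewest transcripts, of mRNA and of lncRNA, in its P library and the most in its L library. Of the deposited columns, that labelled P had the most loci above 0 (49395, against 49173 in E) and that labelled L the fewest (48362). Transcripts and loci are unlike units. Which of these columns belongs to which stage was therefore not settled. Statements on the libraries labelled P and L hold for the deposited columns, and with the labels exchanged what is given for P would be that of L and the reverse.

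Matrix metalloproteinases are zinc enzymes that are secreted or anchored in the membrane as inactive precursors and cleave collagens, laminins and other matrix proteins. TIMPs bind their active site and block them. PLAT (tissue-type) and PLAU (urokinase-type) cleave plasminogen to plasmin, which degrades fibrin and matrix and can activate metalloproteinase precursors. In the mammary gland this system is known for the remodelling of ducts, of the basement membrane and of the involuting gland after weaning, and plasmin is a main endogenous protease of milk.

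All 9 genes had their highest FPKM in the library labelled P, and 8 of them, all but TIMP3, had their lowest in that labelled L. Among 12546 protein-coding genes with at least 1 FPKM in some library, 43.1% were highest in the library labelled P, 38.1% were lowest in that labelled L, and 30.2% had the order P, E, L of these 8 genes. MMP9, under 1 FPKM in each library, is outside that background. The most abundant was TIMP3 and the least abundant MMP9, and the order of abundance among the other genes differed between libraries.

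**Figure D1:**
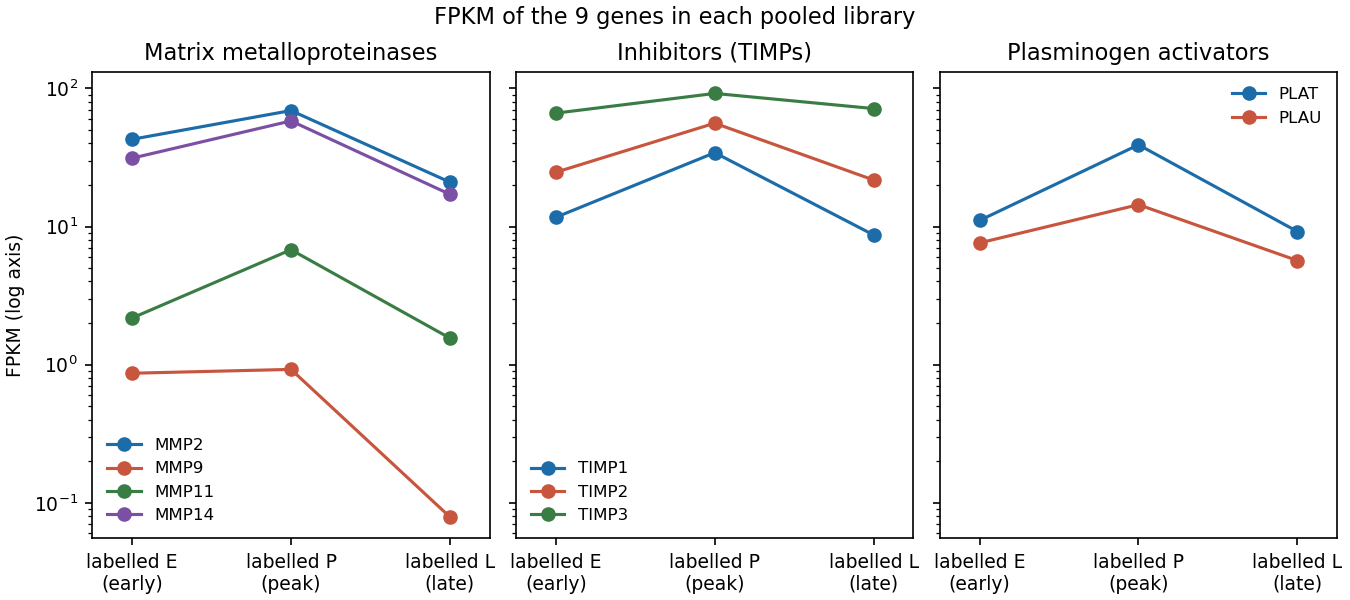
FPKM of the 9 genes on a log axis, with 1 point per pooled library and lines joining the points of a gene. All 9 genes are highest in the library labelled P, and MMP9 is the gene below 1 FPKM in each library.

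MMP2, gelatinase A, degrades denatured collagen and the type IV collagen of basement membranes. Its locus lies on scaffold NW_005100867.1 from 9332283 to 9360351 (gene ID 102184364), and the deposited table gives no name for the assembly. MMP2 had 42.8 FPKM in the library labelled E, 69.1 FPKM in that labelled P and 20.9 FPKM in that labelled L. The library labelled L was thus 3.30-fold lower than that labelled P and 2.04-fold lower than that labelled E, while P was 1.61-fold above E.

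MMP14 is the membrane-anchored collagenase that activates the MMP2 precursor at the cell surface. It is listed on scaffold NW_005100759.1 from 17995128 to 18003432 (gene ID 100861171). MMP14 had 31.2, 58.1 and 17.1 FPKM in the libraries labelled E, P and L. It was 1.86-fold higher in P than in E and 3.40-fold lower in L than in P, and the ratio of MMP2 to MMP14 stayed between 1.19 and 1.37 in the 3 libraries.

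MMP11, stromelysin 3, is made by stromal cells next to epithelium and is released in an active form. It is listed on scaffold NW_005100863.1 from 142942 to 147241 (gene ID 102181066). MMP11 had 2.18, 6.79 and 1.56 FPKM in the libraries labelled E, P and L. Its level was 3.12-fold higher in P than in E, the widest difference between these libraries among the 4 MMPs chosen, and 4.37-fold lower in L than in P.

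MMP9, gelatinase B, is made by neutrophils and macrophages among other cells. It is listed on scaffold NW_005100804.1 from 12291804 to 12299207 (gene ID 102168469). MMP9 had 0.867, 0.924 and 0.0790 FPKM in the libraries labelled E, P and L. The libraries labelled E and P were nearly level, and that labelled L was 11.0-fold below E and 11.7-fold below P. These are the widest ratios of the 9 genes and also those resting on the lowest values, since 3.48% of protein-coding genes had a lower mean FPKM than MMP9.

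TIMP3 is the TIMP that binds to the matrix, and it also inhibits adamalysins, the metalloproteinases of the ADAM and ADAMTS families. It had 66.2 FPKM in the library labelled E, 91.9 FPKM in that labelled P and 71.4 FPKM in that labelled L. With a highest value 1.39-fold its lowest, TIMP3 was the one gene of the 9 that was not 2-fold apart in any comparison. It is listed on scaffold NW_005100669.1 from 12109729 to 12591932 (gene ID 102190027), an interval also given for LOC102173921, whose FPKM were 10.4, 11.0 and 15.3.

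TIMP2 takes part with MMP14 in activating the MMP2 precursor, and at higher amounts inhibits it. Listed on scaffold NW_005100886.1 from 28848185 to 28864495 (gene ID 102178107), TIMP2 had 24.7, 56.0 and 21.7 FPKM in the libraries labelled E, P and L. It was 2.27-fold higher in P than in E and 2.58-fold lower in L than in P, whereas E and L were within 1.14-fold of each other.

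TIMP1 is a soluble inhibitor of most secreted MMPs. TIMP1 had 11.7, 34.2 and 8.69 FPKM in the libraries labelled E, P and L, so it was 2.94-fold higher in P than in E and 3.94-fold lower in L than in P. Its locus on scaffold NW_005101006.1 from 1711545 to 1759227 (gene ID 100860924) is also listed for ARAF, a kinase gene with 8.59, 8.69 and 9.02 FPKM. The values of ARAF were thus nearly level where those of TIMP1 were not.

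PLAT had 11.1, 39.0 and 9.20 FPKM in the libraries labelled E, P and L, and is listed on scaffold NW_005100954.1 from 2204255 to 2228070 (gene ID 102187371). It was 3.53-fold higher in P than in E, and this ratio was above that of 99.2% of 11479 protein-coding genes that reached 1 FPKM in each of these libraries. In L it was 4.24-fold lower than in P. PLAU, on scaffold NW_005100961.1 from 7133193 to 7139468 (gene ID 102188193), had 7.61, 14.4 and 5.67 FPKM. It was 1.89-fold higher in P than in E and 2.54-fold lower in L than in P. The ratio of PLAT to PLAU was 1.45 in the library labelled E, 2.71 in that labelled P and 1.62 in that labelled L.

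Between the libraries labelled E and P, 4 of the 9 genes were at least 2-fold apart, and all 4 (MMP11, TIMP1, TIMP2 and PLAT) were higher in P. Among the 13020 protein-coding genes with a value above 0 in E or P, 10.9% were at least 2-fold higher in P. The median log2 ratio of P over E was 0.92 for the 9 genes, against -0.03 for protein-coding genes that reached 1 FPKM in each. MMP14 and PLAU lay just under 2-fold and passed it when the libraries were scaled to the same FPKM sum, over all loci or over protein-coding genes outside the 50 most abundant.

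Between the libraries labelled E and L, MMP2 and MMP9 were at least 2-fold lower in L, and 0 of the 9 genes were 2-fold higher. Of 13004 protein-coding genes, 6.74% were at least 2-fold lower in L. The median log2 ratio of L over E was -0.42 for the 9 genes and -0.01 for protein-coding genes, and 8 of the 9 genes were below 0. Both calls depended on the processing. MMP2 was no longer 2-fold apart with equal FPKM sums over all loci, and neither gene was with a pseudocount of 1.

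Between the libraries labelled P and L, 8 of the 9 genes, all but TIMP3, were at least 2-fold lower in L, against 17.4% of 13015 protein-coding genes. The median log2 ratio of L over P was -1.77 for the 9 genes and 0.03 for protein-coding genes. At a fold of at least 4, 3 genes were lower in L than in P (MMP9, MMP11 and PLAT), against 6.75% of protein-coding genes. At that fold 0 of the 9 genes were higher in P than in E, against 2.2%, and MMP9 was lower in L than in E, against 2.6%. The comparisons share libraries, and a high value in P enters both that with E and that with L.

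**Figure D2:**
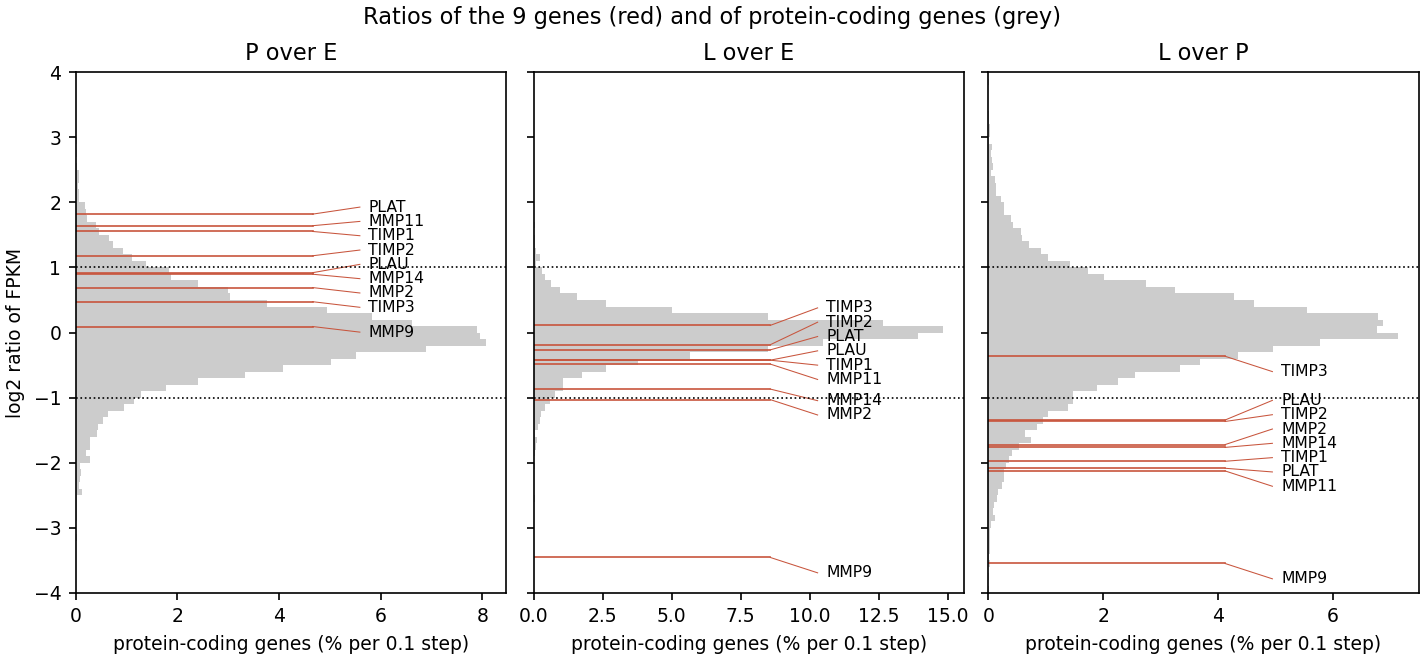
Log2 ratios of FPKM between pooled libraries. Red lines mark the 9 genes, grey bars give the percentage of protein-coding genes at 1 FPKM or more in each library per step of 0.1, and dotted lines mark 2-fold. In L over P, 8 red lines lie below the lower dotted line, with TIMP3 at -0.36.

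Proteases and inhibitors of the same library can be set side by side, since a ratio within a library does not depend on how that library was scaled. The 4 MMPs summed to 77.1 FPKM in the library labelled E, 134.9 FPKM in that labelled P and 39.7 FPKM in that labelled L. The 3 TIMPs summed to 102.5, 182.1 and 101.8 FPKM. The sum of MMPs over that of TIMPs was 0.752 in E and 0.741 in P, and 0.390 in L. MMPs and TIMPs were thus higher by a like factor in P than in E, while in L the MMPs were lower and the TIMP sum was at the level of E. These sums weigh each gene by its abundance, so MMP2, MMP14 and TIMP3 make up most of them.

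Within the TIMPs, the share of TIMP3 was 64.5% in the library labelled E, 50.5% in that labelled P and 70.1% in that labelled L. TIMP1 made up 11.4%, 18.8% and 8.53% of the sum. TIMP3 remained the most abundant TIMP throughout, but its excess over TIMP1 was 5.67-fold in E, 2.69-fold in P and 8.22-fold in L. The ratio of MMP2 to TIMP2 was 1.73, 1.23 and 0.965 in the libraries labelled E, P and L, and that of MMP14 to TIMP2 was 1.26, 1.04 and 0.788.

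Further genes of matrix turnover came from 6 lists with 114 genes, of which 92 had values. Between the libraries labelled E and P, 87 reached 1 FPKM in either, and 11 were at least 2-fold higher and 13 lower in P. Of protein-coding genes with the same minimum, 10.1% were higher and 6.56% lower. This split depended on scaling, with 13 higher and 9 lower at equal FPKM sums and 14 and 8 at equal sums outside the 50 most abundant genes. Under both scalings MMP15, PRSS8, COL1A2 and COL3A1 came within 2-fold between E and P and FURIN and DCN went past it, and under the latter HPN also came within 2-fold and SERPINE2 went past it. Between P and L, 9 of 87 were higher and 22 lower in L (5 and 28 with the latter scaling), against 8.43% and 16.1%. The lower count was 13 with a pseudocount of 1 and 14 of 78 genes with a minimum of 1 FPKM in each library, where the median log2 ratio moved from -0.12 to 0.02. Between E and L, 0 of 84 were higher and 4 lower in L (1 and 2 at equal FPKM sums over all loci), against 1.57% and 4.31%.

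Among the other MMPs, 9 of the 11 genes with values reached 1 FPKM in the library labelled E or P. MMP15, a membrane-type MMP with the highest mean of this list, was lowest where MMP14 was highest, with 10.4 FPKM in E, 4.99 FPKM in P and 9.23 FPKM in L. MMP19 had 1.94, 2.90 and 1.39 FPKM. MMP12, the macrophage elastase, had 0.137 FPKM in E and 1.29 FPKM in P and was listed at 0 in L. MMP15 was 2-fold lower and MMP12 higher in P than in E, and the other 7 were within 2-fold. Of protein-coding genes with the same minimum, 6.56% were lower and 10.1% higher.

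Among other regulators of MMPs, FURIN, the convertase that activates MMP11 and MMP14, had 8.21, 15.8 and 6.43 FPKM in the libraries labelled E, P and L. THBS2, a matricellular protein that promotes the clearance of MMP2, had 5.73, 18.7 and 3.31 FPKM. Both had the order P, E, L of MMP2 and MMP14, and THBS2 was past 2-fold from E to P. THBS1, with 51.3, 61.2 and 16.3 FPKM, was lowest in L, 2-fold below both other libraries or more. In contrast, BSG, a membrane glycoprotein that induces MMPs, had 211 FPKM in E, 117 FPKM in P and 259 FPKM in L. LCN2, which forms a complex with MMP9, had 39.9, 15.7 and 35.1 FPKM and was likewise lowest in P.

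In the plasminogen system, LRP1, the endocytic receptor for complexes of plasminogen activators with their inhibitors, had 33.1, 67.3 and 29.1 FPKM in the libraries labelled E, P and L. PLAUR, the receptor of PLAU, had 2.48, 3.65 and 1.57 FPKM. SERPINE2, an inhibitor of plasminogen activators, had 5.78, 10.4 and 2.75 FPKM. These 3 genes had the order P, E, L. ANXA2, a cell surface receptor of PLAT and plasminogen, was the most abundant with 214, 304 and 207 FPKM. Of the 9 genes above the minimum, LRP1 was 2-fold higher and 0 were lower in P than in E, and 3 (PLAUR, SERPINE2 and LRP1) were lower in L than in P. Of protein-coding genes with the same minimum, 10.1% were higher and 6.56% lower in P than in E, and 16.1% were lower in L than in P. Plasminogen itself is mainly made in the liver, and its gene, PLG, was in the list but had no matched values.

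Among the adamalysins, 21 of the 22 genes with values reached 1 FPKM in P or L, and 7 were lower and 2 higher in L than in P. Of protein-coding genes with the same minimum, 16.1% were lower and 8.43% higher. Among the lower adamalysins, ADAM19 and ADAMTS5 were 2.01-fold apart, and ADAM8, ADAM28, ADAMTS6, ADAMTS7 and ADAMTS18 were below 1 FPKM in L. ADAM28, made by lymphocytes and epithelium, had 1.91, 7.33 and 0.297 FPKM in the libraries labelled E, P and L. ADAM8, known from leukocytes, had 1.10, 2.30 and 0.784 FPKM. ADAMTS7 and ADAMTS18, with 1.98 and 1.21 FPKM in P, had 0.579 and 0.242 FPKM in L. The reverse order was seen for ADAMTS3, a procollagen peptidase, with 3.22 FPKM in E, 1.33 FPKM in P and 3.86 FPKM in L, and for ADAMTS17 with 3.07, 1.02 and 3.59 FPKM. ADAM10, the most abundant, differed little, with 22.8, 26.3 and 20.1 FPKM.

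The list of membrane and stromal serine proteases also holds inhibitors, HGF and MET. Of its 15 genes, 7 were higher and 8 lower in the library labelled P than in that labelled E. HTRA3, a secreted stromal protease, had 6.48 FPKM in E, 20.1 FPKM in P and 3.96 FPKM in L. HGF, a growth factor of plasminogen-like structure, had 1.40, 3.83 and 0.879 FPKM, and its receptor MET had 8.51, 20.5 and 7.90 FPKM. These genes, with TMPRSS4 (0.275, 2.54 and 0.391 FPKM), were the 4 of 15 that were 2-fold higher in P than in E. HPN, which activates HGF at the surface of epithelial cells, had 64.5, 27.9 and 63.2 FPKM. With DPP4 (9.66, 3.69 and 7.11 FPKM) and PRSS8 it was 2-fold lower in P than in E. PRSS8 came within 2-fold under both scalings, and HPN with equal sums outside the 50 most abundant genes. Of protein-coding genes with at least 1 FPKM in E or P, 10.1% were higher and 6.56% lower in P. SPINT2, an inhibitor of HPN and PRSS8, was the most abundant with 226, 163 and 245 FPKM.

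The matrix proteins that these enzymes cleave were not higher as a group in the library labelled P. Of 25 matrix genes with at least 1 FPKM in E or P, FBLN1 was 2-fold higher and 6 (COL1A2, COL3A1, COL4A1, COL4A2, SPARC and POSTN) were lower in P, with a median log2 ratio of 0.01. Of protein-coding genes with the same minimum, 10.1% were higher and 6.56% lower. The split depended on scaling, since under both scalings COL1A2 and COL3A1 came within 2-fold and DCN went past it in P. COL4A1 and COL4A2, the main chains of basement membrane collagen, had 62.0, 20.2 and 84.2 FPKM and 43.8, 17.5 and 59.7 FPKM in the libraries labelled E, P and L. COL3A1, a fibrillar collagen, had 255, 123 and 220 FPKM, and SPARC, a collagen-binding protein, had 155, 63.6 and 122 FPKM. These genes were lowest where MMP2, MMP14 and the TIMPs were highest. Other stromal matrix genes had the order of the proteases, with 131, 254 and 106 FPKM for DCN, a collagen-binding proteoglycan, and 26.0, 62.2 and 18.3 FPKM for FBLN1. POSTN had 12.1, 4.31 and 14.4 FPKM.

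**Figure D3:**
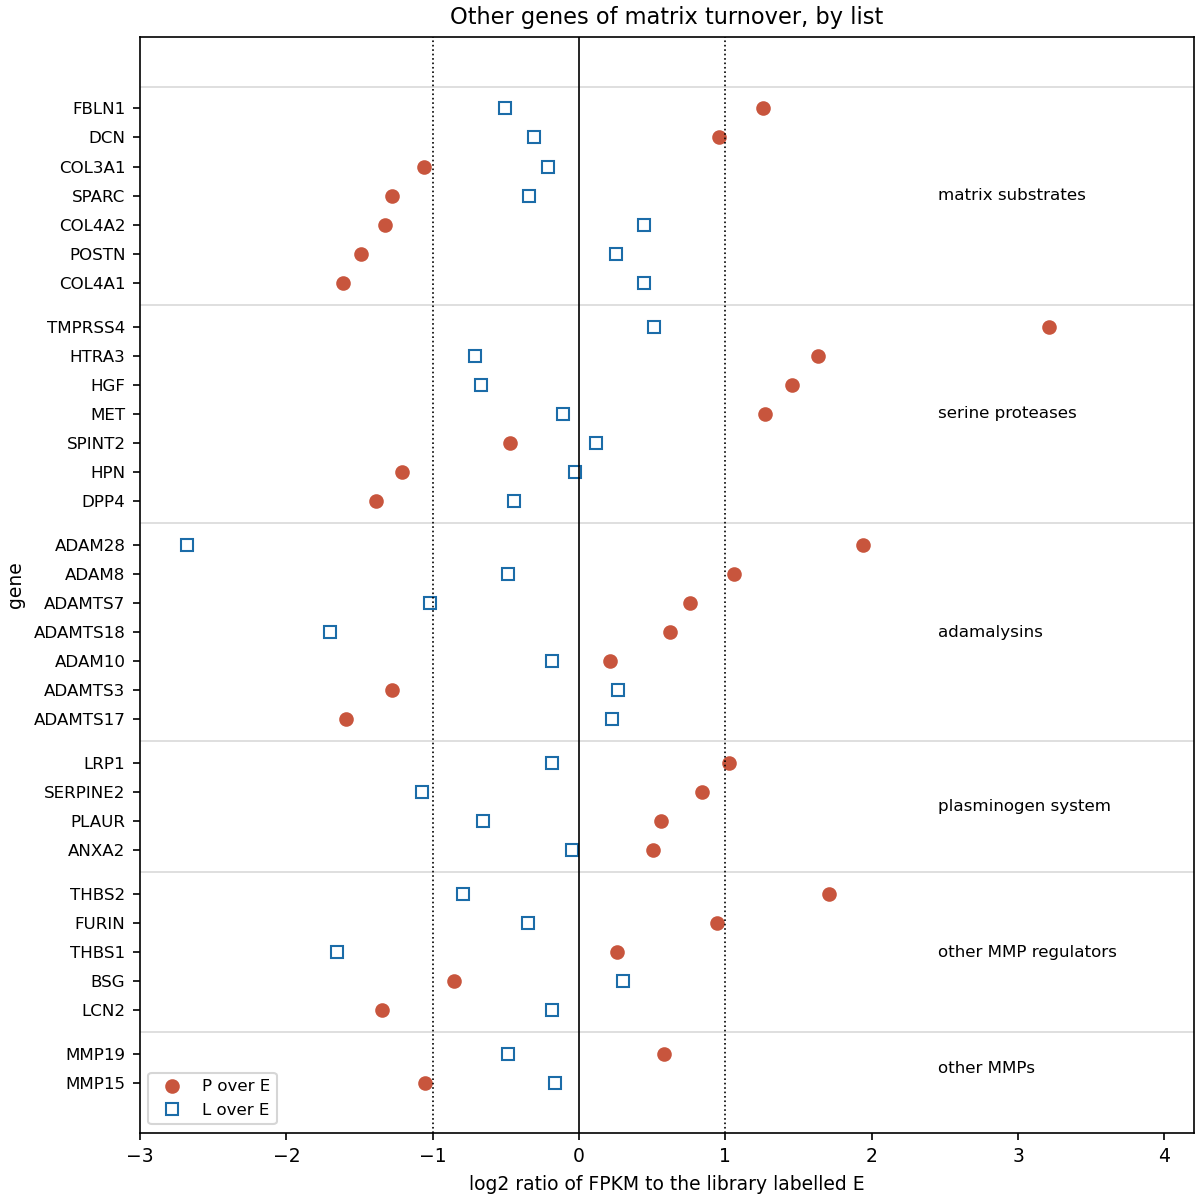
Log2 ratio of FPKM to the library labelled E for further genes of matrix turnover, with filled circles for P and open squares for L; dotted lines mark 2-fold, and MMP12, listed at 0 in L, is not drawn. FBLN1, DCN and THBS2 lie to the right and COL4A1, COL4A2 and LCN2 to the left in P.

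Fewer cells of a type and less RNA per cell cannot be told apart in these tissue pools, so the markers of the cell types that make these proteins are given beside them. The milk genes show secretory tissue in each library, but all 7 with values were at least 2-fold lower in P than in E (6 under either rescaling, without CSN1S1). Of protein-coding genes with at least 1 FPKM in either library, 6.56% were 2-fold lower in P than in E. XDH, for example, had 1558 FPKM in the library labelled E, 509 FPKM in that labelled P and 2148 FPKM in that labelled L. LALBA was listed at 0 in L. Of the 6 luminal markers, 3 were higher and 3 lower in P than in E, from the keratin gene KRT8 with 126, 196 and 154 FPKM to ELF5, a transcription factor gene of the secretory lineage, with 879, 244 and 875 FPKM. Their sum was 1577, 984 and 1526 FPKM. ELF5 is a large part of that sum, and it was the only luminal marker 2-fold lower in P than in E.

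Markers of macrophages and monocytes followed the order of the proteases. All 8 with values were higher in P than in E, 0 of them 2-fold, and all 8 were lower in L than in E, 4 of them 2-fold. Nearly level between E and P were CD14, with 12.4 and 12.5 FPKM, and ITGAM, with 2.29 FPKM in each. The 8 markers summed to 167 FPKM in E, 290 FPKM in P and 88.4 FPKM in L, and CSF1R had 16.6, 25.6 and 7.55 FPKM. T cell markers summed to 17.6, 44.8 and 6.94 FPKM, with 5 of 6 at least 2-fold higher in P than in E and CD3E listed at 0 in both and at 1.43 FPKM in L, where the other 5 were 2-fold lower than in E. The 5 neutrophil markers with values summed to 15.0, 27.6 and 7.36 FPKM, of which CSF3R was nearly level at 2.47, 2.44 and 2.70 FPKM, and S100A8 was listed at 0 in L. Beside the counts of this paragraph stand the shares of protein-coding genes with at least 1 FPKM in either library. Of these, 10.1% were 2-fold higher in P than in E and 4.31% were 2-fold lower in L than in E.

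Of the 9 fibroblast markers, 5 were higher and 4 lower in P than in E, and 8 were lower in L than in E, 0 of them 2-fold. PDGFRA, with 13.7, 28.0 and 11.3 FPKM in the libraries labelled E, P and L, and THY1, with 17.8, 34.4 and 12.9 FPKM, had the order of the proteases, whereas COL1A2 and COL3A1 were 2-fold lower in P than in E. The 9 markers summed to 738, 660 and 608 FPKM, which weighs each gene by its abundance. Large parts of this sum were COL3A1, with 255, 123 and 220 FPKM, and COL1A2, with 138, 65.8 and 106 FPKM. DCN, with 131, 254 and 106 FPKM, went the other way in P. The 5 markers higher in P than in E were PDGFRA, PDGFRB, DCN, THY1 and COL6A3. The sum of the 6 endothelial markers was 142, 134 and 154 FPKM, and none was 2-fold apart in any comparison. The 7 myoepithelial markers summed to 278, 269 and 287 FPKM. Of the 4 adipocyte markers with values, ADIPOQ and LPL were 2-fold lower in P than in E. ADIPOQ, PLIN1 and CIDEC were 2-fold lower in L than in E, where LPL was 1.68-fold higher. LPL, with 683, 269 and 1145 FPKM, had the order L, E, P of XDH, and PLIN1 and CIDEC were below 1 FPKM in P and L. Of protein-coding genes with at least 1 FPKM in either library, 6.56% were 2-fold lower in P than in E. The share 2-fold lower in L than in E was 4.31%. The part of any of these cell types in the levels of the 9 genes was not tested.

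**Figure D4:**
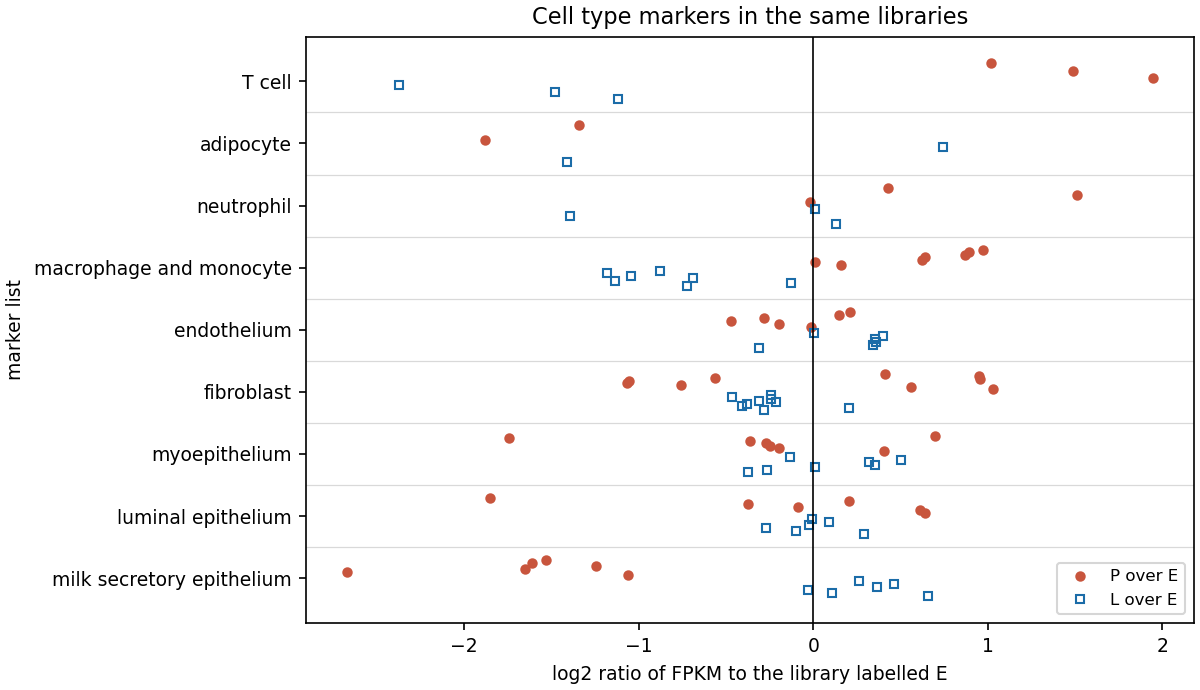
Log2 ratio of FPKM to the library labelled E for cell type markers with at least 1 FPKM in all libraries, with filled circles for P and open squares for L. Macrophage and T cell markers lie to the right in P, with CD14 at 0.01, and to the left in L. Milk genes lie to the left in P, and fibroblast markers lie on both sides in P.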

How the data were processed

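Per the labels and the study's methods, RNA of 5 goats per stage was pooled, and libraries were made with a stranded kit. The authors trimmed the reads with Trimmomatic 0.36, mapped them with TopHat2 2.0.9, assembled them with Cufflinks 2.1.1 and deposited FPKM from Cuffdiff, 1 column per library, for 50041 loci. The use of strand in counting is not given in the sources used here. Values with 7 digits ended in 5 in at least 95.7% of cases per library, and what was averaged is not stated.

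Loci were matched by NCBI gene ID to the ARS1.2 gene table, for names only (14403 of 15274 loci with an ID matched), and summed per gene. A gene was called at a ratio of at least 2, with 0 set to 0.001. Lists required 1 FPKM in either library, and 1 listed gene is not reported here. With 1 library per stage no test was run. Fold calling was tested on simulated data with set folds, which checks the computation only and gives no rate of false calls.

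The members and lists were chosen with earlier results of these data known. Named list genes had at least 1 FPKM in some library and a 2-fold range (at most 6 per list by range), plus the most abundant. Other genes named, ARAF, LOC102173921, PRSS8, COL1A2, ADAM19, ADAMTS5, ADAMTS6, PLG and the cell type markers, stand in the shared loci, the calls, the 6 lists or the marker lists. No sequences were printed. Alternatives were other folds, pseudocounts, filters, scalings, loci kept apart and exchanged labels. Python 3.11.15, numpy 2.4.6, pandas 2.3.3 and matplotlib 3.10.9 were used.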

Additional observations from a re-analysis of the deposited data

How the results depend on the processing

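No paired analysis was possible because only 1 pooled library was made per stage, so none could be left out of a comparison. The signs of the 27 log2 ratios of the 9 genes were kept under pseudocounts of 0.1 and 1, centring, both rescalings and 1 locus per gene ID. Rescaling to equal FPKM sums outside the 50 most abundant genes moved the median log2 ratio of protein-coding genes from -0.03 to 0.21 for P over E and from 0.03 to -0.21 for L over P. Exchanging the labels P and L changed the sign of 25 of the 27. At a fold of at least 4, the 9 genes gave 0 calls for P over E, 1 for L over E and 3 for L over P (2.2%, 2.6% and 6.75% of protein-coding genes in the same direction), and the lists gave 2, 1 and 8, fewer by construction. For L over E, the 9 genes gave 0 calls with a pseudocount of 1, 1 with a minimum of 1 FPKM in each library and 1 with equal FPKM sums over all loci, and the lists gave 2 with that pseudocount, 2 with that minimum and 9 with no filter on low FPKM. With labels exchanged, P over E gave 2 calls for the 9 genes and 4 for the lists, and L over E gave 4 and 24. The exchanged log2 ratios of P over E were -0.48 for MMP11, -0.42 for TIMP1, -0.19 for TIMP2 and -0.27 for PLAT. Those of L over E were 0.69 for MMP2 and 0.093 for MMP9. Those of L over P were 1.72 for MMP2, 3.55 for MMP9, 1.77 for MMP14, 2.13 for MMP11, 1.98 for TIMP1, 1.37 for TIMP2, 2.09 for PLAT and 1.34 for PLAU. The cause of changes other than the fold and the exchange was not tested. With the reads per locus not used here, ratios of low values such as those of MMP9 have no known precision.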

Other observations

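The genes whose pattern over the 3 libraries lay nearest to each of the 9 were taken among protein-coding genes with at least 10 mean FPKM, by the distance of log2(FPKM + 0.1) centred per gene. Of 7 genes with a 2-fold range and at least 1 FPKM throughout, TIMP1 lay nearest to NECTIN3, a cell adhesion gene, at a distance of 0.0094, with 7.91, 23.1 and 5.87 FPKM in the libraries labelled E, P and L. IGFBP4, an IGF-binding protein gene, was next at 0.057, and TIMP1 was itself the nearest gene to MMP11, at 0.065. TIMP2 lay nearest to GSTM3 at 0.025, followed by MET and by IGF1, which had 12.3, 29.9 and 10.6 FPKM. For PLAT the nearest was MZB1, a plasma cell gene, at 0.088 with 15.0, 50.8 and 11.4 FPKM.

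PLAU lay nearest to FGL2 at 0.041, and FURIN and the fibroblast marker THY1 were next at 0.051 and 0.053. MMP14 lay nearest to LOC102188617 at 0.025 and ANO1 at 0.034, and MMP2 to LOC102185698, while IRF8, a transcription factor gene of myeloid cells, lay at 0.065 from MMP2. Within a distance of 0.25 lay 8 of 4975 genes for PLAT and 80 of 4976 for PLAU, and the other 5 lay between these numbers. Nearness over 3 libraries is a description.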
